A study of Mus musculus with 18 samples.

Results

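Igll1 encodes the lambda5 subunit of the surrogate light chain, and its level was used to sort 18 mouse lymphomas into a high and a low side. All 18 tumours of the series entered, and a tumour was placed on the high side when its Igll1 level was 7.5 or more on the log2 scale. The high side held 7 tumours and the low side 11. Each tumour was an end-stage tumour of the spleen from a different mouse on the C57BL/6 background. Every mouse carried the Eμ-Myc transgene, in which the immunoglobulin heavy chain enhancer drives Myc in cells of the B lineage. In 9 mice Prdm11, a member of the PRDM family of transcriptional regulators, was wild type (WT), and in 9 it was knocked out (KO). No treatment was given, and the labels state neither age nor sex. The tumours were frozen and homogenised whole, so the RNA also came from other cells of the spleen, and in such bulk samples fewer cells of a type and less RNA per cell cannot be told apart. The sides are not groups that the study set up, and the threshold was taken with earlier results of these data known.

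B cells are made in the bone marrow through a series of stages. Pro-B cells express the recombinases RAG1 and RAG2, which join the gene segments of the heavy chain, and terminal transferase (Dntt), which adds bases at the joints. Once a heavy chain is made, large pre-B cells pair it with the surrogate light chain, built from lambda5 and VpreB, in the pre-B cell receptor. That receptor drives a burst of division and is lost when a true light chain replaces the surrogate. As B cells mature they gain CD20 (Ms4a1), MHC class II and homing receptors. Lymphomas of Eμ-Myc mice are known to resemble either pre-B cells or mature B cells.

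The surrogate light chain gene Vpreb1, the gene Gm525, the DNA repair gene Xrcc6 with its neighbour Desi1, and the adhesion gene Ceacam1 are the genes past the test whose promoters are shown here. The bases come from RefSeq on the GRCm38.p6 build. Each of the first 3 lines ends at the base before a start site of its gene. The last line holds the bases between a start site of Desi1, read to the left, and a start site of Xrcc6, read to the right. The annotated extents of Ceacam1 (to 25477647), Desi1 (to 82016258) and Xrcc6 (from 81987833) reach beyond the start sites used here. Bases of these lines therefore also lie within annotated genes. Vpreb1 lies at chr16:16869256-16869505 on the minus strand, Gm525 at chr11:89073591-89073840 on the plus strand, Ceacam1 at chr7:25477626-25477875 on the minus strand, and the shared stretch at chr15:82016221-82016368 on the plus strand. Capitals mark a GAGGAA core on either strand, the letters bound by PU.1, in Vpreb1, and TCCC and GGGA parted by any 2 bases, the element of EBF1, in Ceacam1. The Ceacam1 line also holds GAGGAA, left in lower case.
Vpreb1: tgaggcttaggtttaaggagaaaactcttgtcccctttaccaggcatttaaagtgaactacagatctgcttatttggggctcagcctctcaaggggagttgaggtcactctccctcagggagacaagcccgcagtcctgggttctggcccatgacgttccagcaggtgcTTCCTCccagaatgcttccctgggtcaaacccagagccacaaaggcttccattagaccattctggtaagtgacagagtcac
Gm525: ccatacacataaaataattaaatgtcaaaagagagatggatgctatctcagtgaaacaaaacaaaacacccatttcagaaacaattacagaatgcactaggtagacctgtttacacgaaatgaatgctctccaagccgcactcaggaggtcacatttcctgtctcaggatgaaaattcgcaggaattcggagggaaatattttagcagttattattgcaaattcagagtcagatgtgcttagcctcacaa
Ceacam1: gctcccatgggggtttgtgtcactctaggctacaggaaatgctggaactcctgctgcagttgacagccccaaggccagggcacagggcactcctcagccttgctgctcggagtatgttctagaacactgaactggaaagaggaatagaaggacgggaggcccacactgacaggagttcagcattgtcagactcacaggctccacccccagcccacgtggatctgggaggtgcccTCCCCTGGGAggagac
Desi1 and Xrcc6: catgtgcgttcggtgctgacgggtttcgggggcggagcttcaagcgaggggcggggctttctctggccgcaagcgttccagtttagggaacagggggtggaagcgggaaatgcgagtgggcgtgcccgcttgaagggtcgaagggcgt

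The members of each side were chosen by the measured Igll1 level alone, so Igll1 describes the split and is not a result. On the high side its level was 7.81 in WT9, 7.84 in WT1, 8.04 in KO9, 8.80 in KO2, 9.39 in KO1, 9.42 in KO4 and 10.66 in KO8. The low side ran from 5.58 to 7.37, with a median of 6.49. WT9 at 7.81 was the tumour just inside the threshold, and WT7 at 7.37 the one just outside. The high side held 2 WT and 5 KO tumours and the low side 7 WT and 4 KO tumours, and a two-sided Fisher's exact test of side against genotype gave p = 0.335 (n = 18). With the threshold at 8.0, 0 of 9 WT and 5 of 9 KO tumours were high (Fisher's exact p = 0.0294), so that call rests on where the line is drawn.

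**Figure D1:**
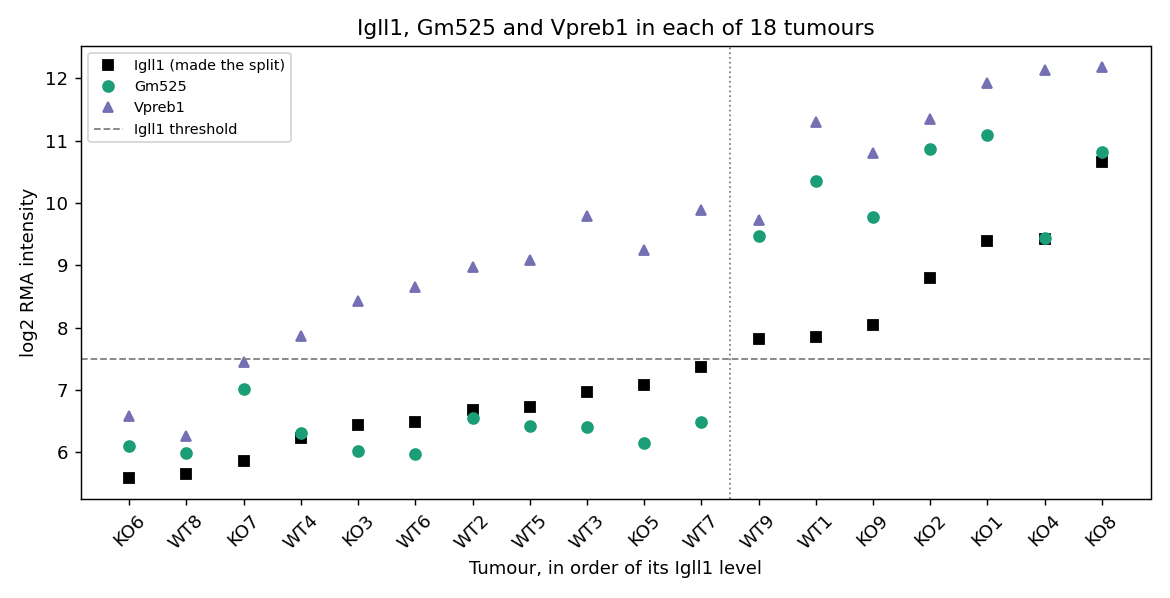
Log2 RMA intensity of Igll1, Gm525 and Vpreb1 in each of the 18 tumours, which are placed from the lowest to the highest Igll1 level; the dashed line is the threshold of 7.5 and the dotted line divides the sides. Gm525 lies at 5.97 to 7.01 in the 11 low tumours and at 9.44 to 11.09 in the 7 high tumours, while Vpreb1 covers a wide range on the low side (6.26 to 9.89).

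All levels below are log2 RMA intensities of 1 probe set per gene, and a difference is high minus low with the Prdm11 genotype as a covariate in limma. P-values were adjusted over the 19937 genes other than Igll1 by the Benjamini-Hochberg method, and a gene past an adjusted p of 0.05 is called higher or lower. In all, 9 genes were higher (0.0451% of those tested) and 5 were lower (0.0251%) on the high side, 14 together (0.0702%). At an unadjusted p below 0.05 the counts were 455 higher (2.28%) and 681 lower (3.42%), and the median difference over all genes was -0.01. Of all differences 47.1% were above 0 and 52.9% below, the background for the counts of positive and negative differences given for gene lists. After median centring the unadjusted counts were 827 higher and 440 lower, with a median over all genes of 0.0344. Which direction held more genes thus depended on the scaling. The sides did not overlap for 5 genes in the higher direction (0.0251%) and 11 in the lower (0.0552%). Array medians ran from 35.3 to 41.7 in intensity. WT3, a low tumour, stood apart. Its values had a median Pearson correlation of 0.924 with those of other tumours, and no other tumour was under 0.957. Without WT3 and KO4, the arrays of lowest weight, 7 genes were higher and 3 lower. Vpreb1, Arhgap10, Ceacam1 and Ms4a1 were then no longer called.

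Among the surrogate light chain genes, Vpreb1, the partner of lambda5, was 7.87-fold higher on the high side. Its level was 9.72 at the lowest, 11.35 at the median and 12.19 at the highest of the 7 high tumours. On the low side these values were 6.26, 8.65 and 9.89. In 6 of 7 high tumours Vpreb1 lay above every low tumour, and WT9 alone overlapped with the low side. The difference was 2.98 (SE 0.52), with an adjusted p of 0.0313 in limma. It lost the call without WT3 and KO4 (2.96, adjusted p = 0.0598 in limma). Vpreb1 has a near-identical copy in Vpreb2, and the probes of each may take signal from the other. Vpreb2 differed by 0.31 (SE 0.19) and Vpreb3, a relative that associates with immature receptor chains, by 0.51 (SE 0.38), and neither passed the test (adjusted p = 0.973 and 0.994 in limma). Vpreb2 ran from 5.82 to 7.29 on the high side and from 5.57 to 6.73 on the low side, and Vpreb3 from 8.81 to 10.01 and from 6.18 to 9.65. KO8, with the highest Igll1, had the highest level of both Vpreb1 and Vpreb2.

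Gm525 showed the largest difference of all genes tested. It is a predicted gene on chromosome 11 that the naming rule passes over, and it is named here after its values were seen. The 7 high tumours had 10.35 in WT1, 9.47 in WT9, 11.09 in KO1, 10.87 in KO2, 9.44 in KO4, 10.81 in KO8 and 9.77 in KO9. The low tumours ran from 5.97 to 7.01 with a median of 6.3, and the sides did not overlap. Gm525 was thus 14.8-fold higher (difference 3.89, SE 0.23, adjusted p = 1.44e-08 in limma). The difference was 3.61 within WT and 4.08 within KO tumours. Among the 10 genes measured beside Gm525 on chromosome 11 the differences ran from -0.14 to 0.19, and 0 passed the unadjusted threshold.

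Of the 12 measured genes of V(D)J recombination and end joining, 1 was higher and 0 were lower (backgrounds 0.0451% and 0.0251%). Their median difference was 0.22, beside -0.01 over all genes. The gene that was higher was Xrcc6, which encodes Ku70, the subunit that with Ku80 binds broken DNA ends before they are joined. Xrcc6 was 8.41, 8.76 and 9.17 at the lowest, median and highest of the high side, against 6.92, 7.67 and 7.94 on the low side. Every high tumour lay above every low tumour, at a 2.2-fold higher mean (difference 1.13, SE 0.15, adjusted p = 0.00461 in limma). Xrcc5, the gene of Ku80, differed by 0.35 (SE 0.23) and Lig4, the ligase of this pathway, by 0.27 (SE 0.16), and neither passed.

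The recombinase genes themselves divided the high side. Rag1 was 9.27 in WT1, 8.90 in KO1, 8.84 in KO4 and 6.76 in KO2, but 4.88 in KO8, 4.76 in WT9 and 4.25 in KO9. On the low side Rag1 ran from 4.85 to 7.09 with a median of 5.28, so 3 high tumours lay above every low tumour and 2 lay below every one. Rag2 was likewise 7.51 in KO1, 6.17 in KO4, 6.15 in WT1 and 5.50 in KO2, and lay between 3.10 and 3.47 in the 3 other high tumours. Dntt was 9.54 in KO4, 7.46 in WT1, 6.82 in KO1 and 6.40 in KO8, against a low side of 3.66 to 4.84, while WT9 had 4.85, KO2 3.89 and KO9 3.64. The differences were 1.29 (SE 0.68) for Rag1, 1.33 (SE 0.56) for Rag2 and 1.86 (SE 0.63) for Dntt. With this spread none of these 3 genes passed (adjusted p = 0.917, 0.791 and 0.586 in limma). KO8, which had the most Igll1, was thus a tumour with little Rag1.

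**Figure D2:**
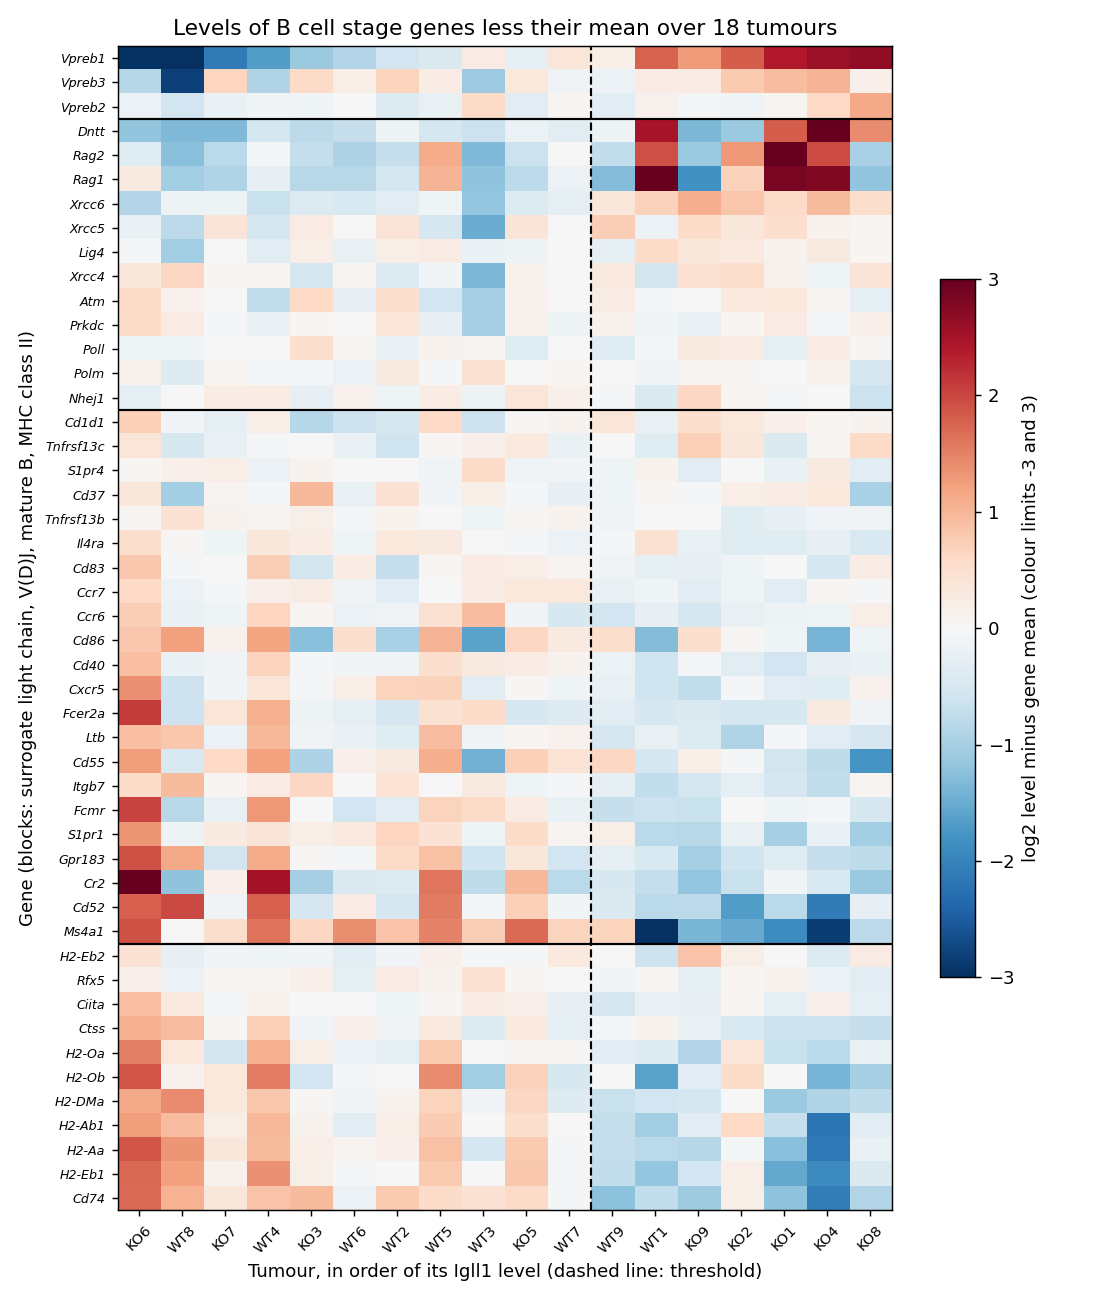
Level of each gene less its mean over the 18 tumours (colour, log2, limits -3 and 3), for the surrogate light chain, V(D)J, mature B cell and MHC class II lists from top to bottom, with tumours in columns from the lowest to the highest Igll1 level and a dashed line at the threshold. Xrcc6 lies above its mean across the high side. Vpreb1 is red in most high tumours, but WT9 (9.72) is below the low tumours WT3 (9.79) and WT7 (9.89). Rag1, Rag2 and Dntt are red in only some high tumours, and Ms4a1 and Cd74 are blue in most high tumours.

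Among 21 measured receptors and early genes of progenitor B cells, 0 were called, 8 were higher and 1 lower at the unadjusted threshold (backgrounds 2.28% and 3.42%), and the median difference was 0.38. Bst1, the surface enzyme CD157 that marks early B lineage cells, was 6.01, 7.32 and 8.85 on the high side and 4.69, 5.77 and 6.96 on the low side (difference 1.67, SE 0.37, adjusted p = 0.11 in limma). In 5 of 7 high tumours Bst1 lay above every low tumour, and WT9 (6.01) and KO8 (6.33) did not. Erg, an ETS transcription factor of early progenitors, differed by 1.06 (SE 0.28). Lef1, a WNT pathway factor active in pro-B cells, differed by 1.03 (SE 0.30), and Arpp21, a regulator of calmodulin signalling and RNA, by 1.06 (SE 0.29). For Erg and Arpp21, as for Bst1, 5 of 7 high tumours lay above every low tumour. Myb, a factor needed for early lymphopoiesis, differed by 0.74 (SE 0.23), and the marrow homing receptor Cxcr4 by 0.38 (SE 0.10). In the opposite direction, Ly6d, a surface marker of B lineage commitment, differed by -1.26 (SE 0.49).

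Enpep, the peptidase BP-1 that marks large pre-B cells, differed by 1.12 (SE 0.31, adjusted p = 0.317 in limma). On the high side it was 4.95 in WT1 and 4.55 in WT9, but 6.13 to 7.63 in the 5 KO tumours. On the low side it ran from 4.18 to 4.78 apart from KO7, which had 6.53. The difference was 0.29 within WT and 1.71 within KO tumours, and the interaction had an unadjusted p of 0.0216 and an adjusted p of 0.999 in limma. Il7r, the receptor subunit for the growth factor of progenitor B cells, differed by 0.80 (SE 0.54), with WT1 highest at 8.79 and KO8 at 4.67. Kit, the receptor for stem cell factor, differed by -0.17 (SE 0.13). Neither passed, and the 13 measured genes of the IL-7 and STAT5 pathway had a median difference of -0.05 with 0 called.

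The other genes that were higher have varied roles. Ada, adenosine deaminase, which removes adenosine and deoxyadenosine, was 6.75, 7.82 and 8.21 on the high side and 6.38, 6.75 and 7.0 on the low side. It was 1.86-fold higher (difference 0.89, SE 0.16, adjusted p = 0.0408 in limma), and WT9, at 6.75, was the high tumour inside the range of the low side. Aldh1b1, a mitochondrial aldehyde dehydrogenase, was 1.99-fold higher (difference 0.99, SE 0.16, adjusted p = 0.0248 in limma), with 6 of 7 high tumours above every low tumour. Dleu7, a gene of the region deleted in chronic lymphocytic leukaemia, was 5.71, 6.03 and 6.37 against 4.84, 5.31 and 5.6, without overlap (difference 0.75, SE 0.12, adjusted p = 0.0218 in limma). Arhgap10, a GTPase-activating protein, ran from 5.63 to 6.35 against 4.65 to 5.36, again without overlap (difference 0.67, SE 0.12, adjusted p = 0.0383 in limma). Cmtm7, a membrane protein of the chemokine-like family that takes part in B cell receptor signalling, was 1.51-fold higher (difference 0.60, SE 0.10, adjusted p = 0.0313 in limma).

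Desi1, a desumoylating peptidase, lies head to head with Xrcc6 on chromosome 15 and was 1.61-fold higher (difference 0.69, SE 0.13, adjusted p = 0.039 in limma). Its level ran from 6.87 to 7.48 on the high side and from 6.13 to 6.85 on the low side, without overlap. The start sites used for the pair lie 149 bases apart on opposite strands, and the bases between them are those printed above. In the gene table the extent of Xrcc6 also covers Desi1. The sources used here do not give the strand of the probes, and signal of the pair cannot be fully assigned to either gene. The 9 other genes measured around Xrcc6 differed by -0.07 to 0.28, and 0 passed the unadjusted threshold.

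**Figure D3:**
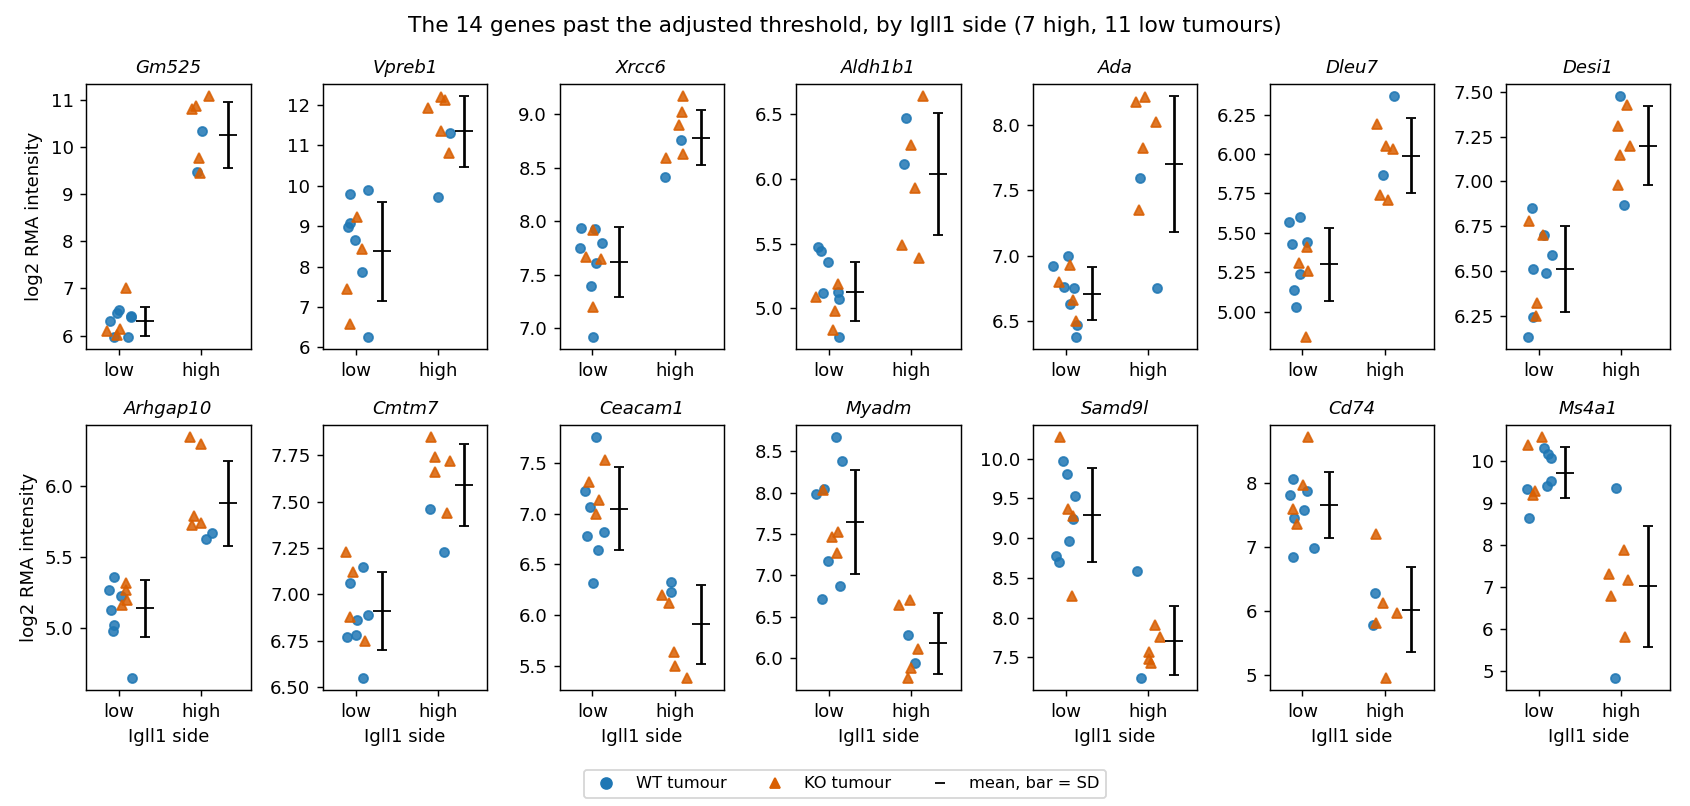
Log2 RMA intensity of the 14 genes called higher or lower, with 1 point per tumour (circles WT, triangles KO), for 11 low and 7 high tumours; the horizontal mark is the mean and the bar 1 SD on either side, and each panel has its own axis. The sides do not overlap for Gm525, Xrcc6, Dleu7, Desi1, Arhgap10 and Myadm, and for Ms4a1 the high tumour within the low range is WT9 at 9.35.

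Ms4a1, which encodes CD20, a surface protein that B cells gain as they mature, was 6.65-fold lower on the high side. Its level was 4.84 in WT1, 5.82 in KO4, 6.79 in KO1, 7.16 in KO2, 7.30 in KO9, 7.88 in KO8 and 9.35 in WT9. On the low side it was 8.64, 9.52 and 10.58 at the lowest, median and highest. In 6 of 7 high tumours Ms4a1 lay below every low tumour (difference -2.73, SE 0.47, adjusted p = 0.0313 in limma). Without WT9 the difference was -3.41 (adjusted p = 0.000547 in limma), and without WT1 it was -2.14 and not called (adjusted p = 0.0904 in limma).

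Cd74, the invariant chain that guides MHC class II molecules to the compartment where peptides are loaded, was 3.32-fold lower. It was 4.95, 5.96 and 7.2 on the high side and 6.85, 7.59 and 8.73 on the low side. In 6 of 7 high tumours it lay below every low tumour, and KO2 (7.20) was the exception. The difference was -1.73 (SE 0.27, adjusted p = 0.0218 in limma). All 11 measured genes of MHC class II presentation had negative differences. Of these, 9 had an unadjusted p below 0.05 in the lower direction (background 3.42%), and Cd74 was called lower (background 0.0251%). The median of the list was -1.02, beside -0.01 over all genes.

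Most of the class II chains also had negative differences of more than 1, without passing the test. H2-Eb1 was 5.44, 6.62 and 7.57 against 7.32, 7.54 and 9.08 (difference -1.51, SE 0.32, adjusted p = 0.104 in limma), and H2-Aa differed by -1.48 (SE 0.33), H2-Ab1 by -1.16 (SE 0.31). The chain gene H2-Eb2 was at -0.04 (SE 0.16). H2-DMa, part of the peptide exchange complex, differed by -1.10 (SE 0.24). KO4 had the lowest Cd74 and lies at the blue end for these chains in the heat map, whereas KO2 stayed within the low side for several of them. Ciita, the master activator of class II genes, differed by -0.38 (SE 0.13, adjusted p = 0.626 in limma), and its partner Rfx5 by -0.15 (SE 0.11). MHC genes have close paralogs, and their probes may share signal. With T cell, macrophage and erythroid list means as covariates (below, the composition covariates), the median of the class II list was -0.55 and Cd74 was at -1.37 (adjusted p = 0.157 in limma).

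Among 22 measured surface and homing genes of mature B cells, 1 was lower and 0 were higher (backgrounds 0.0251% and 0.0451%). In the lower direction 13 had an unadjusted p below 0.05 (background 3.42%). Of the differences 20 were negative (median -0.55, and -0.26 with the composition covariates). Besides Ms4a1, which was also in this list, S1pr1, the receptor that lets lymphocytes leave tissues along sphingosine phosphate, was 5.76, 5.96 and 6.95 on the high side and 6.62, 7.05 and 8.1 on the low side (difference -0.95, SE 0.21, adjusted p = 0.11 in limma). The integrin chain Itgb7, used for homing to the gut, differed by -0.70 (SE 0.16), and the glycoprotein Cd52 by -1.49 (SE 0.41). Cr2, complement receptor CD21 of mature B cells, ran from 4.41 to 5.48 on the high side and from 4.35 to 9.64 on the low side, so its difference of -1.30 (SE 0.62) came with a wide spread among the low tumours. The B cell survival receptor gene Tnfrsf13c differed by 0.09 (SE 0.16).

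In B cell receptor signalling 0 of 25 measured genes were called, and the median was -0.33 (-0.13 with the composition covariates). At an unadjusted p below 0.05, 10 were lower and 0 higher (backgrounds 3.42% and 2.28%). Bank1, an adaptor of the receptor, was 6.53, 7.24 and 9.25 against 7.51, 9.26 and 9.92 (difference -1.78, SE 0.37, adjusted p = 0.101 in limma), with WT9 the highest of the high side. The kinase gene Blk differed by -0.90 (SE 0.22), the inhibitory co-receptor Cd22 by -0.76 (SE 0.20), the inhibitory Fc receptor Fcgr2b by -0.94 (SE 0.25) and the NF-kB adaptor Malt1 by -0.87 (SE 0.20). The receptor chain genes Cd79b and Cd79a differed by -0.61 (SE 0.17) and -0.26 (SE 0.30). Among genes common to all B cells, 0 of 15 were called and the median was -0.38.

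Of the B lineage markers, Cd79b ran lower on the high side, with 3 of 7 high tumours below every low tumour. Pax5 began at similar levels on both sides, while Cd79a and Ebf1 reached lower levels on the low side. Cd79a ran from 5.74 to 6.63 on the high side and from 3.69 to 6.88 on the low side. For Ebf1 the ranges were 6.37 to 8.45 and 4.25 to 7.95. Cd79b ran from 8.59 to 9.76 and from 9.19 to 10.24, and Pax5, the factor that fixes B cell identity, from 5.9 to 7.2 and from 5.8 to 8.0. Of 27 measured B lineage transcription factors, 0 were called, and the median was -0.08. At an unadjusted p below 0.05, 4 were lower and 0 higher (backgrounds 3.42% and 2.28%). Klf2, which restrains division and keeps lymphocytes quiescent, differed by -0.56 (SE 0.13), and Spib, a relative of PU.1, by -0.69 (SE 0.17). Ebf1, the factor that starts the B cell programme, differed by 0.64 (SE 0.43) and Pax5 by -0.05 (SE 0.26). Of the immunoglobulin list only 3 genes were measured, among them Ighm, the heavy chain of IgM, at -0.33 (SE 0.20). Genes of germinal centres and plasma cells (15 measured) had a median of -0.22 with 0 called.

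The remaining genes that were lower were Samd9l, Myadm and Ceacam1. Samd9l, an interferon-induced restrictor of growth, was 7.24, 7.56 and 8.59 on the high side and 8.27, 9.28 and 10.28 on the low side, 2.92-fold lower (difference -1.54, SE 0.26, adjusted p = 0.0313 in limma). WT9 was again the high tumour inside the low range. Myadm, a membrane protein of the myeloid and other lineages, was 5.76, 6.11 and 6.7 against 6.71, 7.52 and 8.68, without overlap and 2.73-fold lower (difference -1.45, SE 0.26, adjusted p = 0.0387 in limma). Ceacam1, an inhibitory adhesion receptor, was 5.38, 6.12 and 6.33 against 6.32, 7.07 and 7.76, 2.21-fold lower (difference -1.14, SE 0.20, adjusted p = 0.0313 in limma). Its sides met only at WT9 (6.33) and WT4 (6.32). Of 16 measured interferon-stimulated genes, 0 were called, and the median was -0.36 (-0.16 with the composition covariates). At an unadjusted p below 0.05, 8 were lower (background 3.42%). Xaf1 differed by -0.75 (SE 0.27) and Irf7, the factor that amplifies the interferon response, by -0.39 (SE 0.13).

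The next genes missed the adjusted threshold. Cd2, an adhesion receptor of lymphocytes, was 6.17, 8.4 and 9.41 on the high side and 9.5, 9.76 and 10.59 on the low side, without overlap (difference -1.93, SE 0.39, adjusted p = 0.101 in limma). Rnase6, a ribonuclease of immune cells, differed by -1.81 (SE 0.37) and Slfn8, of the Schlafen family, by -1.12 (SE 0.23), also without overlap. Capg, an actin-capping protein, differed by -1.17 (SE 0.23) and Lsp1, a leukocyte actin-binding protein, by -0.97 (SE 0.20), with overlap. In the other direction Mei4, a gene of meiotic recombination, differed by 1.39 (SE 0.29), Uaca, a regulator of the apoptosome, by 1.30 (SE 0.27), and Lxn, a carboxypeptidase inhibitor, by 1.23 (SE 0.24), and the sides overlapped for all 3.

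Myc itself ran from 9.96 to 10.46 on the high side and from 9.03 to 10.91 on the low side, a difference of 0.16 (SE 0.22) that turned sign to -0.07 within KO tumours and to -0.13 with the composition covariates. In its network of partners and antagonists 0 of 13 were called and the median was 0.0. The 29 MYC targets of ribosome biogenesis had a median of 0.12 with 0 called and 27 positive differences. Of 25 DNA replication genes, 25 had positive differences, 0 were called and 6 had an unadjusted p below 0.05 in the higher direction (background 2.28%), with a median of 0.26. Rfc3, a subunit of the clamp loader, differed by 0.56 (SE 0.22) and Rrm2, a ribonucleotide reductase subunit, by 0.54 (SE 0.17), and the highest Rrm2 was in WT1. For 21 mitosis genes the median was 0.24, with 19 positive differences and 0 called. With the composition covariates these medians were 0.09 for replication, 0.07 for mitosis and -0.05 for ribosome biogenesis.

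Among survival genes, Bcl2, which blocks the mitochondrial death pathway, differed by -0.70 (SE 0.23) and its relative Mcl1 by -0.40 (SE 0.12), and 0 of 14 family members were called (median -0.10). The 15 genes of the ARF and p53 pathway had a median of -0.01 with 0 called. All 14 NF-kB genes had negative differences (median -0.21, 0 called, and -0.03 with the composition covariates), with Rel at -0.62 (SE 0.25). The 10 MHC class I genes also had negative differences (median -0.17, 0 called), and that median was -0.01 with the composition covariates. ERK feedback genes, glycolysis genes and ribosomal protein genes had medians of 0.06, 0.04 and -0.03, with 0 called in each.

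**Figure D4:**
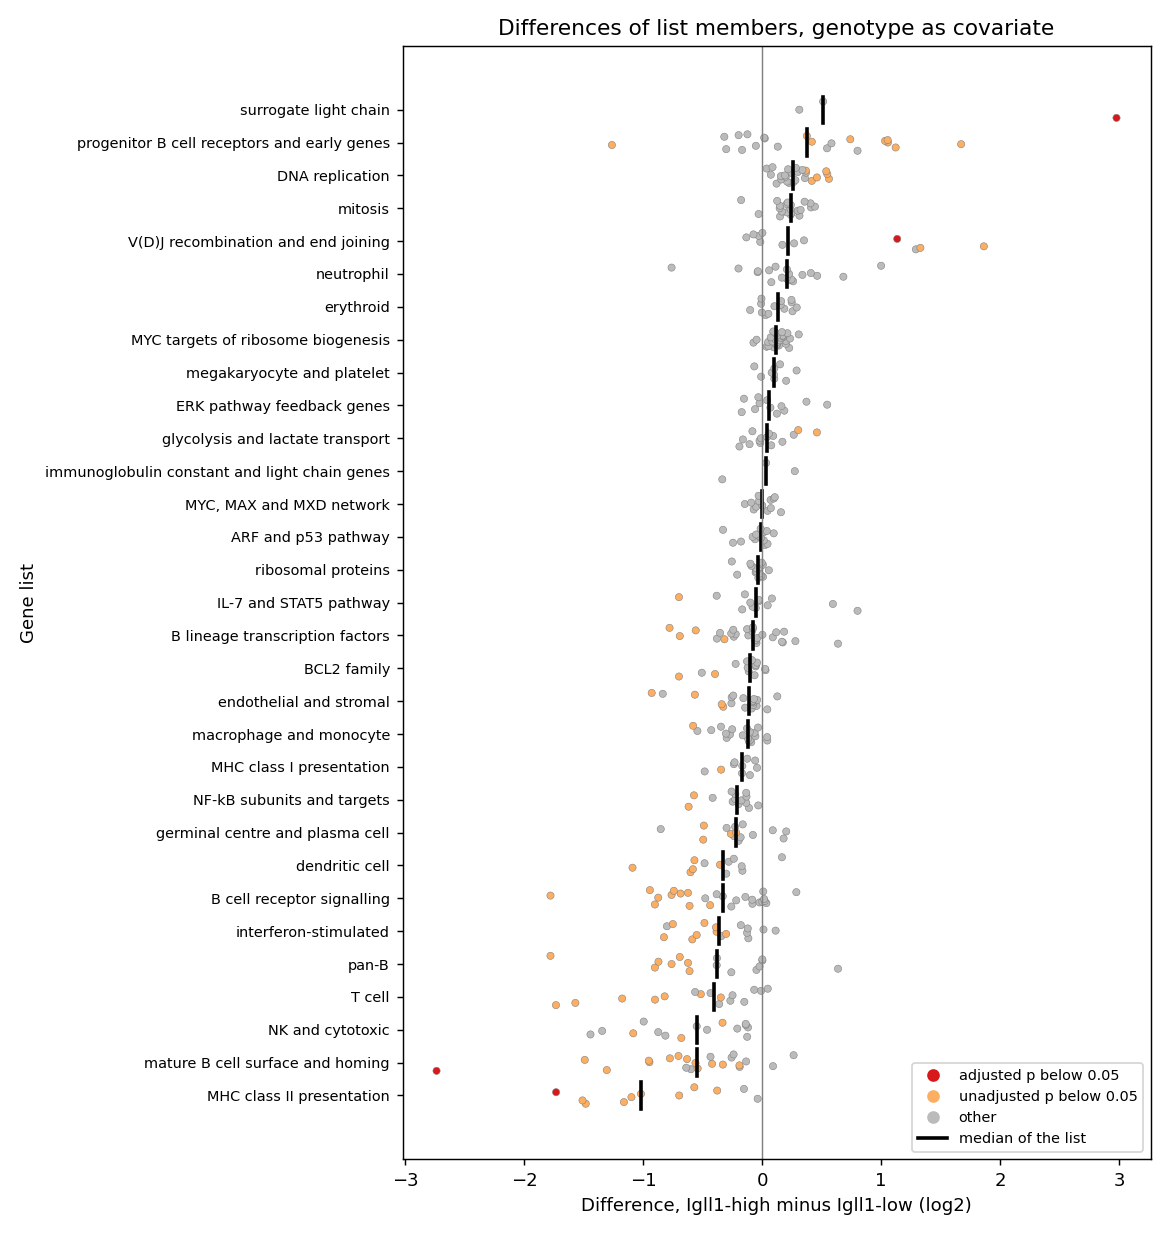
Difference of each measured list member, high minus low on the log2 scale (horizontal axis), for 31 gene lists ordered by median; the vertical tick is the list's median, red points passed the adjusted threshold and orange points an unadjusted p below 0.05. The surrogate light chain (median 0.51) and progenitor B cell (0.38) lists lie at the top. The MHC class II (-1.02), mature B cell (-0.55) and NK and cytotoxic (-0.55) lists lie at the bottom.

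Markers of other cells moved with the sides in part. The 16 T cell genes had a median difference of -0.40, 7 with an unadjusted p below 0.05 in the lower direction (background 3.42%) and 0 called. Their mean level was narrow on the high side (5.05 to 5.25) and wide on the low side (5.03 to 6.68). Cd8a, the CD8 co-receptor chain, was 5.05, 5.21 and 5.41 against 5.44, 5.79 and 7.39, without overlap (difference -0.90, SE 0.25), and Cd3g of the T cell receptor complex differed by -1.57 (SE 0.60). The 15 NK and cytotoxic genes had a median of -0.55 (-0.01 with the composition covariates) with 0 called. Their list means were 4.91 to 5.55 against 4.66 to 7.07. The 12 dendritic cell genes had a median of -0.33 (-0.07 with the composition covariates) with 0 called. Their list means were 5.18 to 5.43 against 5.34 to 6.36, with Clec9a at -1.09 (SE 0.37) and Itgax at -0.60 (SE 0.17). Dendritic cells also express MHC class II, and their part in those differences was not tested.

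The macrophage and monocyte list had a median of -0.12 (list means 6.38 to 7.16 against 6.37 to 7.58), with C1qa at 0.04 (SE 0.15) and Adgre1 at -0.09 (SE 0.18). Neutrophil genes had a median of 0.21 (5.82 to 7.58 against 5.8 to 8.08), erythroid genes of 0.13 (7.15 to 9.34 against 6.64 to 8.51), megakaryocyte genes of 0.10 (6.7 to 7.61 against 6.86 to 7.71) and endothelial and stromal genes of -0.11 (5.3 to 5.77 against 5.52 to 6.22). In each of these 5 lists 0 genes were called. Several of these medians had opposite signs within the genotypes, with 0.58 in WT and -0.14 in KO tumours for erythroid genes, 0.08 and -0.35 for macrophage genes and -0.21 and 0.32 for megakaryocyte genes. With the T cell, macrophage and erythroid list means as covariates, 2 genes were higher and 1 was lower, and Gm525 was still called (difference 3.74, adjusted p = 3.33e-06 in limma). Under these covariates Xrcc6 was at 1.09 (adjusted p = 0.0608 in limma), Ms4a1 at -2.82 (0.081) and Vpreb1 at 2.09 (0.224). The part of other cells in the called differences was otherwise not tested.

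No gene passed the adjusted threshold for a side-by-genotype interaction in limma (0 of 19937, 0.0%), and 517 genes (2.59%) had an unadjusted p below 0.05. The 2 high WT tumours limit this comparison. Within WT tumours alone 1 gene was higher, Gm525, and 0 were lower, with 187 and 243 at the unadjusted threshold. Within KO tumours alone, 5 high against 4 low, 9 were higher and 6 lower, and Gm525, Vpreb1, Xrcc6, Ada, Ms4a1 and Ceacam1 were among them. Vpreb1 differed by 1.87 within WT and 3.76 within KO tumours, Ms4a1 by -2.54 and -2.87, and Cd74 by -1.49 and -1.90. For Ceacam1 (-0.66 and -1.47) and Ada (0.47 and 1.19) the unadjusted p of the interaction was 0.0399 and 0.0266. Prdm11 differed by -0.15 (SE 0.13) between the sides. Its probe set read 4.84 to 5.66 in WT and 4.87 to 5.49 in KO tumours, so the value does not track the knockout.

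Vpreb1 lies near Igll1 on chromosome 16. The 19 other genes measured around Igll1 differed by -0.15 to 0.48 with a median of 0.05, and 0 were called and 1 had an unadjusted p below 0.05. By chromosome, an arrangement examined after values had been seen, the highest median was that of chromosome 12. Its 652 genes had a median difference of 0.0464 and 62.6% were positive, against medians of -0.0246 to 0.0106 and positive shares of 42.9% to 52.8% for the 19 other chromosomes. Of its genes 6.75% were higher and 1.69% lower at the unadjusted threshold, and the shares were 2.14% and 3.48% over the other chromosomes.

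In each tumour the mean level of the chromosome 12 genes was set against the mean of all genes. On the high side the value was 0.196 in WT1, 0.207 in KO9, 0.257 in KO4, 0.317 in KO8, 0.342 in WT9, 0.345 in KO2 and 0.349 in KO1. The low side ran from 0.148 to 0.241 with a median of 0.209. Thus 5 of 7 high tumours lay above every low tumour, and WT1 and KO9 lay among the low ones. With the genes in chromosome order and divided into 3 equal parts, the median differences were 0.0628, 0.08 and 0.0197, with 62.7%, 69.1% and 56.0% positive. Within WT tumours alone the median of chromosome 12 was 0.0147, beside -0.03 over all genes. Within KO tumours alone it was 0.0722, beside 0.00185 over all genes. DNA copy number was not measured in the files used here.

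**Figure D5:**
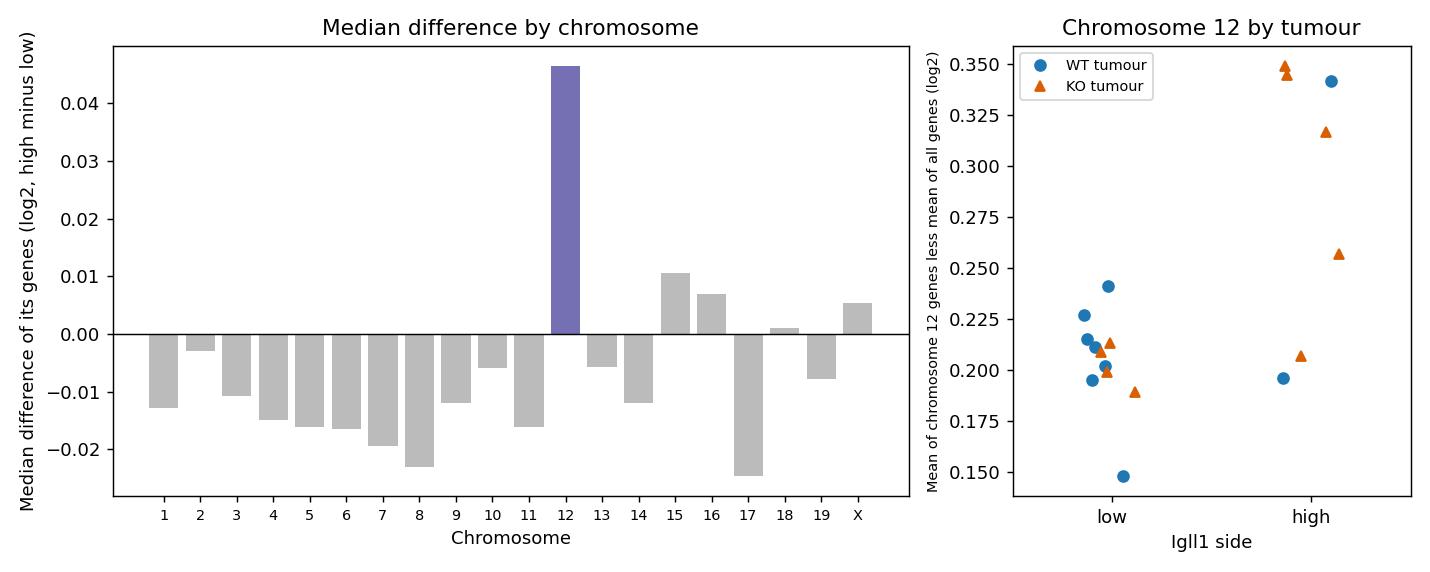
Left, the median difference of the genes of each chromosome, high minus low on the log2 scale, with chromosome 12 coloured. Right, the mean level of chromosome 12 genes less that of all genes in each tumour (circles WT, triangles KO), where 5 of the 7 high tumours lie above the highest low tumour (0.241).

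Promoter windows, from 250 bases before to 50 after each start site, were on hand for 11 of the 14 called genes, in 14 windows. The PU.1 core GAGGAA, searched on both strands, was in the windows of 4 genes (Ceacam1, Myadm, Samd9l and Vpreb1) and in 28.3% of all 32851 windows. In Vpreb1 its first base lies 81 bases before the start site. The EBF1 element, TCCC and GGGA parted by any 2 bases, reads the same on both strands. It was in 1 gene, Ceacam1, and in 0.904% of all windows. In Ceacam1 it begins 16 bases before the start site used here, which is within the gene's annotated extent. CCAAT on either strand was in the windows of 6 genes and 37.4% of all. The octamer ATTTGCAT (1.74% of all windows) and the interferon element, a pair of GAAA parted by any 2 bases (3.44%), were in 0 of the 14, each searched on both strands. These matches describe letters only.

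Each tumour was also left out in turn. Gm525 and Xrcc6 were called in all 18 of these fits, with adjusted p of at most 2.46e-07 and 0.0236 in limma. The number of genes that were higher ran from 2, without KO3, KO5 or KO6, to 20, without WT9, and the number lower from 0, without KO1, KO5, KO6 or KO8, to 22, without WT9. Cd74, Dleu7 and Aldh1b1 lost the call in 5 fits each (highest adjusted p = 0.0642, 0.0642 and 0.0873 in limma), and Samd9l in 8 (0.102). Vpreb1 and Ceacam1 lost it in 10 each (0.0975 and 0.116), Ms4a1, Myadm, Arhgap10 and Cmtm7 in 11 each (0.116, 0.116, 0.118 and 0.118), Desi1 in 13 (0.153) and Ada in 14 (0.128). KO5 and KO6 were among the tumours whose loss ended each of these 12 calls, and no called gene changed direction in any of the 18 fits.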

How the data were processed

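The deposited data were linear probe set intensities of 18 Affymetrix arrays, 1 per tumour. The submitters' processing notes name RMA as the authors' method, and the sources used here give neither its version nor a genome build. Intensities ran from 1.63 to 14996 and were transformed to log2 with no pseudocount and no filter on dim probe sets. RMA draws the arrays towards 1 distribution, so an overall change in RNA amount between tumours cannot be seen. Array medians of the deposited values still ran from 5.14 to 5.38 on the log2 scale, and rescaling changed which genes were called. Of 35556 probe sets, 21789 had 1 symbol in the platform annotation, 1621 had several and 12146 had none. Each gene took its probe set with the highest mean (19938 genes), and 21698 named probe sets matched RefSeq identifiers on GRCm38.p6. Igll1 had 1 probe set.

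Genes other than Igll1 were compared with lmFit and eBayes of limma 3.58.1 in R 4.3.3, with side and genotype as terms. The design had foreseen log2 values. Replicates were tumours of different mice. P-values rest on the number of arrays, which limits their precision. Python 3.11.15 with pandas 2.3.3, scipy 1.17.1 and matplotlib 3.10.9 did the rest, and the scripts of the limma fit were tested on simulated data.

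The members of the sides, the threshold, the 31 gene lists and the naming rule were chosen with earlier results of these data known. Named were Vpreb1, Vpreb2, Vpreb3, Rag1, Rag2, Dntt, Il7r, Kit, Enpep, Myc and Prdm11, the 12 higher and the 12 lower genes of largest difference among those called (places left filled by smallest p, unannotated clones passed over), and from each list up to 4 called members or the 2 of smallest p. Other genes were named after their values were seen. The sources used here give no scan date, batch or sex. The titles' replicate numbers do not pair tumours. Same-numbered WT and KO tumours had correlations of deviations from their genotype means between -0.23 and 0.49. Alternatives covered the threshold, Igll1 as a level, genotype, probe set choice, scaling, filter, variance model, array weights, composition and Xist covariates, the replicate number as a block and left-out tumours.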

Additional observations from a re-analysis of the deposited data

Results flagged for a closer look

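For 85 genes, the highest or lowest value of the 7 high tumours was set against its nearest neighbour with Dixon's test at the 95% level. The genes were those named by the rule, Gm525 and Igll1. The 11 low tumours are too many for that test. It marked 8 genes, and chance marks about 1 in 20 groups. WT1 held 5 of these values. Its Tfrc, the transferrin receptor, was 11.19, a gap of 0.77 of the whole range, its Sptb, erythroid beta spectrin, 7.72 (next 6.28), its Rrm2 11.28 (next 10.54), its Mxd1, a MAX partner, 6.83 (next 6.14) and its Itgax, CD11c, 4.78 (next 4.37). Without WT1 the difference of Tfrc was -0.02 and that of Sptb -0.07. KO4 had the highest Dusp5, an ERK phosphatase, at 5.90 (next 5.72) and the lowest Mcl1 at 8.93 (next 9.28). WT9, the tumour just inside the threshold, had the highest Bank1 at 9.25 (next 7.56).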

How the results depend on the processing

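Counts of genes called, higher and lower, were 9 and 5. They were 0 and 0 (373 and 703 at an unadjusted p below 0.05 in limma) with the threshold at 7.0, 7 and 3 at 8.0, 6 and 23 with Igll1 as a level, 20 and 26 with no genotype covariate, 1 and 0 (187 and 243 unadjusted) in WT alone, 9 and 6 in KO alone, 4 and 2 over all probe sets, 10 and 11 after quantile normalization, 7 and 1 after median centring, 5 and 4 with a trend and robust eBayes, 29 and 25 with array weights, 2 and 1 with composition covariates, 3 and 1 with Xist, and 7 and 3 without WT3 and KO4, an alternative chosen after seeing the data. At 8.0 no WT tumour was high, so the differences there came from KO tumours only and equalled those in KO alone. The genes called were the same 14 with the other probe set rule and with dim genes left out. The share of calls that were higher was 64.3%, 87.5% with median centring and 47.6% after quantile normalization. At an unadjusted p below 0.05 in limma, the main fit gave 455 higher and 681 lower, and median centring 827 and 440. With the replicate block, whose numbers only name tumours, 1 gene (Gm525) was higher and 0 lower (1202 and 903 unadjusted in limma). Left-out tumours gave 2 to 20 higher, 0 to 22 lower, and 0 to 1 interactions (1 without KO5) over 16 fits, since none could be fitted without WT1 or WT9 or at 8.0. The Fisher's exact p was 0.0294 at 8.0. Gm525 was called in 15 of 17 settings other than left-out tumours, and lost at 7.0 and 8.0.

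No called gene changed sign. The alternatives were tallied for the genes that the naming rule selects and Gm525, not for other list members. Among those, signs that turned, all in uncalled genes, were in WT alone Btg2 (0.06), Mdm4 (0.20), Mxd1 (0.16), Rplp1 (0.20), Gp5 (-0.00755) and Vpreb2 (-0.00999). Under the replicate block they were Dusp5 (0.07), Gp5 (-0.09), Ighg3 (-0.20), Il7r (-0.64), Mxd1 (0.15), Prdm11 (0.40) and Tfrc (-0.15). With Igll1 as a level they were Il7r (-0.03) and Prdm11 (0.02), at 8.0 and in KO alone Myc (-0.07), Sptb (-0.03) and Tfrc (-0.10), with composition covariates Myc (-0.13) and Vpreb3 (-0.15), and with array weights Tfrc (-0.10). With left-out tumours Sptb ran from -0.07 to 0.45 and Tfrc from -0.02 to 0.38, both lowest without WT1. The cause was not tested. Over 34 settings some list medians changed sign. They were those of immunoglobulin genes (-0.20 to 0.24), the MYC network (-0.06 to 0.10), erythroid (-0.24 to 0.58) and p53 genes (-0.11 to 0.18). Ribosomal protein (-0.14 to 0.01), glycolysis (-0.04 to 0.10), IL-7 (-0.10 to 0.06) and ERK genes (-0.05 to 0.13) also turned. So did macrophage (-0.55 to 0.08), megakaryocyte (-0.21 to 0.32), ribosome biogenesis (-0.05 to 0.24), mitosis (-0.03 to 0.38) and neutrophil genes (-0.21 to 0.32). The T cell median (-0.77 to 0.03) turned only with the composition covariates. These hold the mean of the T cell list itself, so that turn carries no information on the T cell genes.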
